A study of Mus musculus with 4 samples.

Results

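Intraepithelial lymphocytes are T cells that live between the epithelial cells of the gut, and epithelial cells make surface proteins and cytokines that these lymphocytes depend on. The genes described here are 8 of the 31053 in the count tables. They were chosen by symbol, with earlier results of these data known. They are the butyrophilin-like genes Btnl1, Btnl2, Btnl4 and Btnl6, the cytokine genes Il15, Il18 and Il7, and Il18bp. All 8 were found. Their counts were followed in 2 allogeneic and 2 syngeneic droplet single-cell RNA libraries of small-intestinal crypts, taken 7 days after bone marrow transplantation. All recipients were lethally irradiated female C57BL/6 mice of 8 to 12 weeks. Allogeneic recipients had BALB/c donors and are labelled as having graft-versus-host disease, in which donor cells attack host tissue, while syngeneic recipients had C57BL/6 donors and are labelled as controls. Each library pooled 3 to 4 mice, so n = 2 pools per group throughout, and no mouse can be told from another within a pool. The names of all 4 libraries start with "KO", a prefix left unexplained by the labels, and no unirradiated mice were analysed here.

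As background, Btnl1 and Btnl6 proteins pair on the surface of mouse villus enterocytes, where they select and maintain a subset of gamma-delta intraepithelial lymphocytes, and Btnl4 can also pair with Btnl1. Interleukin-15, presented on its receptor chain Il15ra by the epithelial cell itself, keeps many of these lymphocytes alive, and interleukin-7 sustains lymphocytes that carry Il7r. Interleukin-18 is held in epithelial cells as a precursor that caspase-1 cleaves, and the secreted decoy encoded by Il18bp binds it and blocks its receptor.

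The cells that passed the filters numbered 2052 and 4804 in allogeneic pools 1 and 2, and 2872 and 2457 in syngeneic pools 1 and 2 (12185 in all), at medians of 3940 to 5183 UMIs (molecular barcodes that let copies of 1 captured RNA be counted once). Deposited totals were 16755124 and 26677842 UMIs in the allogeneic pools and 18262459 and 14961466 UMIs in the syngeneic pools. Pairs of libraries shared 2 to 7 cell barcodes. Of the kept cells, 11687 were epithelial, and clusters were named from marker genes since the labels give no annotation. The allogeneic pools differed from each other more than the syngeneic pools did: the SD over genes of the log2 difference within the pair was 0.66 for the allogeneic pair and 0.20 for the syngeneic pair. Of all barcodes in allogeneic pool 1, 27.2% exceeded the limit on mitochondrial counts, against 11.2% to 14.9% in the other libraries. The enterocyte-like class numbered 368 and 1946 cells in the allogeneic pools and 309 and 377 in the syngeneic pools, and the groups filled different clusters of it. All but 5 of the 2314 allogeneic enterocyte-like cells lay in clusters 0, 1, 10 and 16, and all but 10 of the 686 syngeneic ones in clusters 12 and 19. A further cluster led by Reg3a and Fabp6 (cluster 9, with 24 and 4 allogeneic and 421 and 369 syngeneic cells) scored highest for enterocyte markers but missed the limit for a name, as did cluster 11, with 45 and 374 allogeneic and 2 and 3 syngeneic cells.

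The butyrophilin-like genes lie together on chromosome 17 of GRCm38, in the annotation GENCODE M21. Btnl2 spans chr17:34354822-34369495 and Btnl1 chr17:34377132-34386028, both on the plus strand, and Btnl4 spans chr17:34466562-34477318 and Btnl6 chr17:34507804-34517352, both on the minus strand. Their RefSeq promoters (GRCm38.p6, 250 bases before to 50 after the start, 5′ to 3′ in the direction of transcription) are shown because Btnl1, Btnl4 and Btnl6 pair as proteins and share an enterocyte pattern below. Promoters were matched for 6 of the 8 genes, all but Il15 and Il7. The windows follow the RefSeq start, which is the outer start of the gene in GENCODE M21 for Btnl1, Btnl2 and Btnl6; for Btnl4 and Il18bp it lies 1381 and 458 bases inside the gene, so the printed windows of these genes overlap their GENCODE spans. In the Btnl4 and Btnl6 lines, capitals mark the 25 bases of each that differ from, or have no partner in, the alignment with the other.
Btnl4, chr17:34475888-34476187, minus strand: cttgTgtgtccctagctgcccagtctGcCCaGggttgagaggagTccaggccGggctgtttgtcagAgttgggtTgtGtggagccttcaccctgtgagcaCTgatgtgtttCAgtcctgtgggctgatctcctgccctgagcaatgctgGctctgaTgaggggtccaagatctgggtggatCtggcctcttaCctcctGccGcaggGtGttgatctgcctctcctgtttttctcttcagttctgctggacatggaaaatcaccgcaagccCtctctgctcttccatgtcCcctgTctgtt
Btnl6, chr17:34517303-34517602, minus strand: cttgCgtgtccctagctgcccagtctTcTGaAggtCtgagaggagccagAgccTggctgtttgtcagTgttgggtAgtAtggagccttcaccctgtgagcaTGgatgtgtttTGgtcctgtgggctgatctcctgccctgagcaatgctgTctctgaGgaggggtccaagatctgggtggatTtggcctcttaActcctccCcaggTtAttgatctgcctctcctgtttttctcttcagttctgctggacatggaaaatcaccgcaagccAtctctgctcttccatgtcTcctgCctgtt
The 2 promoters were identical at 275 of 302 aligned positions (91.1%), whereas every other pair among the 4 genes had 51.6% to 53.4% identity. In the next 2 lines, capitals mark the letters CAAAGTCCA, an HNF4-type motif, which was found in Btnl2 alone of the 6 promoters and in 0.479% of 32544 promoters of the same length.
Btnl1, chr17:34376882-34377181, plus strand: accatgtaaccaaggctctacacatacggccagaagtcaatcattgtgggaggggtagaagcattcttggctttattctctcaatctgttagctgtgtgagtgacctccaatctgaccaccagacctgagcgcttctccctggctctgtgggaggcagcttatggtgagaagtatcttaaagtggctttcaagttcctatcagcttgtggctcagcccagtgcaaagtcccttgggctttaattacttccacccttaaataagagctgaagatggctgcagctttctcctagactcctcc
Btnl2, chr17:34354572-34354871, plus strand: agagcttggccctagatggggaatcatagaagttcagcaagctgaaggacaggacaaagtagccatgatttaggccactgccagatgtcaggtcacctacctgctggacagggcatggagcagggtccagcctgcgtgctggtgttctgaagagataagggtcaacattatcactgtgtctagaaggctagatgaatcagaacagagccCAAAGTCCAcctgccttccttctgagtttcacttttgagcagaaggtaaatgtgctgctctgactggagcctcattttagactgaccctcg
The interferon-type motifs GAAANNGAA and TTCNNNGAA, present in 8.53% and 8.33% of all promoters, the CDX2-type motif CAATAAA (4.51%) and the NF-kB-type motif GGACTTTCC (0.347%) had no match in any of the 6 windows. All were searched on both strands with overlaps between motifs allowed. The Il18bp window is printed in full below, since Il18bp is the gene of the set with the largest called difference between the groups.
Il18bp, chr7:102018183-102018482, minus strand: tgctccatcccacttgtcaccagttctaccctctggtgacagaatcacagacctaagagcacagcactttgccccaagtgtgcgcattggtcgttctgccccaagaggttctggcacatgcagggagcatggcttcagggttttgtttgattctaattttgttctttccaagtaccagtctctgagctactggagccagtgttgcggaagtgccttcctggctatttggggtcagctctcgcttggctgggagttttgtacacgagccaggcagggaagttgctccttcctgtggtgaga
The absence of these letters from the window says nothing about the factors that bind them.

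Reads of near-identical genes can be split or lost by counting. Of the 50-base windows in the last 400 bases of the longest coding transcript, 10.3% of those of Btnl4 and 14.5% of those of Btnl6 also occurred in transcripts of another butyrophilin-like gene or pseudogene. The other 6 genes shared none, so the counts of Btnl4 and Btnl6 carry an uncertainty that those of Btnl1 and Btnl2 do not.

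All 4 butyrophilin-like genes were highest in enterocyte-like cells among the 7 named epithelial classes in each pool. In that class 0 of the 4 passed the test between the groups, where 3.16% of 6653 genes did. Levels are UMIs per 1000000 UMIs of the summed cells (CPM), with exact 95% Poisson intervals drawn in the plots that cover counting error only. Btnl1 stood at 36.7 and 56.5 CPM in allogeneic enterocyte-like cells and at 49.1 and 56.2 CPM in syngeneic ones. The allogeneic pools therefore lay on both sides of a syngeneic pool, with means of 46.6 ± 14.0 CPM in allogeneic and 52.7 ± 5.1 CPM in syngeneic pools (SD, n = 2 pools each). The fitted log2 ratio, allogeneic over syngeneic, was -0.02 (SE 0.36, edgeR quasi-likelihood, adjusted p = 0.990), and its sign changed with the processing.

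Btnl6, the partner of Btnl1, had 56.0 and 50.4 CPM in allogeneic enterocyte-like cells, against 59.6 and 68.7 CPM in syngeneic ones. Both allogeneic values were below both syngeneic values, an order held by 26.5% of genes in this class, and their counting intervals overlap. Its log2 ratio was -0.18 (SE 0.29, edgeR, adjusted p = 0.831). Btnl4, which shares its promoter sequence most closely with Btnl6, had 36.0 and 28.5 CPM in the allogeneic pools and 33.3 and 33.1 CPM in the syngeneic pools, values that overlap, with a log2 ratio of 0.04 (SE 0.31, edgeR, adjusted p = 0.972).

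Btnl2, whose protein inhibits T cell activation in vitro, was the butyrophilin-like gene with the largest difference in enterocyte-like cells. It had 37.4 and 26.8 CPM in allogeneic pools, against 71.0 and 56.2 CPM in syngeneic pools, so that the groups did not overlap. The log2 ratio of -0.92 (SE 0.30) had an unadjusted p of 0.0127 and did not pass after adjustment over 6653 genes (edgeR, adjusted p = 0.150). It passed without allogeneic pool 1 (-0.998, adjusted p = 3.71e-05) and without allogeneic pool 2 (-0.82, adjusted p = 0.012), where the spread comes from the syngeneic pair alone. In this class 26.5% of 7263 genes with a mean of at least 5 CPM had both allogeneic pools below both syngeneic pools, so the order of the pools alone is common. Where the tertile of epithelial cells with the highest share of UMIs from enterocyte markers was taken in place of the class, the ratio was -0.39 (adjusted p = 0.531).

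**Figure D1:**
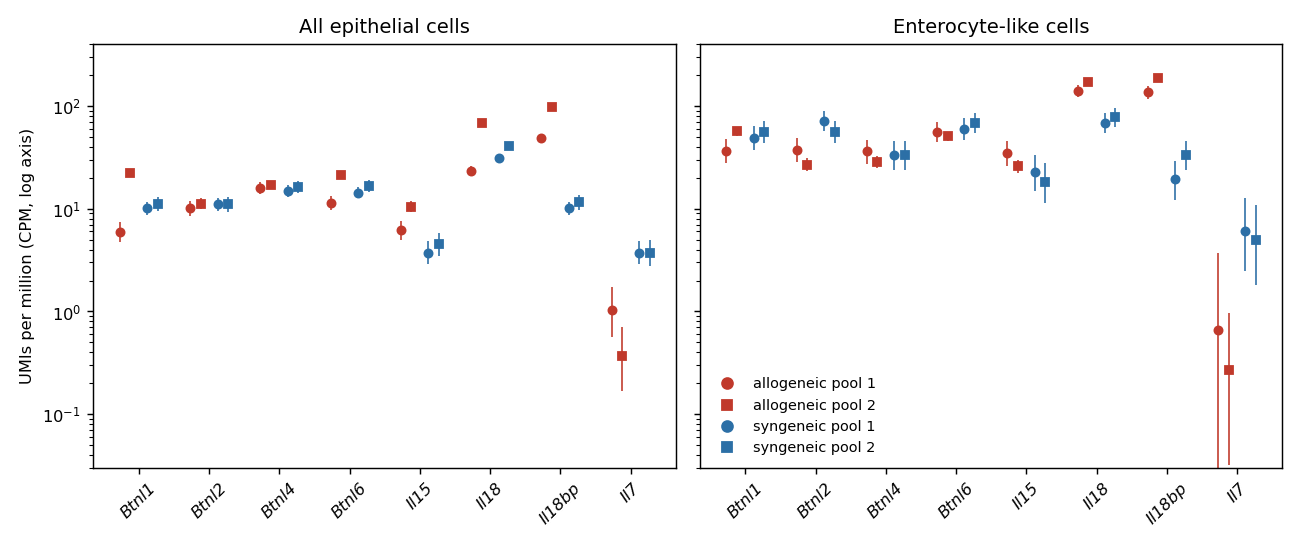
Level of each of the 8 genes per pool (CPM, log axis; bars are exact 95% Poisson intervals) in all epithelial cells and in enterocyte-like cells. Il18bp of both allogeneic pools lies above, and Il7 below, both syngeneic pools in each panel, while the pools of the groups overlap for Btnl1 and Btnl4 in both panels.

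In the cycling progenitor-like, stem-like, goblet-like and Paneth-like classes Btnl1 was low. It had 0.293 to 4.86 CPM there in the allogeneic pools and 0.345 to 4.63 CPM in the syngeneic pools, from 1 to 29 UMIs per pool and class. In stem-like and Paneth-like cells it was near the limit of 3 counts, at 1 to 7 UMIs per pool. Goblet-like cells of allogeneic pool 1 had 1 UMI. Btnl4 had 2.92 to 13.3 CPM in those 4 classes of the allogeneic pools and 2.41 to 19.2 CPM in the syngeneic pools, ranges that overlap. Of the 4 genes, those abundant enough to be tested in these classes had no call. The levels of a gene were not tested between classes.

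Binning all epithelial cells into tertiles by their share of UMIs from enterocyte markers gave a ranking that needs no cluster names. In the low tertile Btnl1 stood at 1.11 and 1.32 CPM in the allogeneic pools and 1.91 and 0.446 CPM in the syngeneic pools. In the high tertile it stood at 30.7 and 49.7 CPM in the allogeneic pools and 39.8 and 41.6 CPM in the syngeneic pools. Each of the 4 butyrophilin-like genes was higher in the high tertile than in the low tertile in all 4 pools. In the high tertile Btnl2 was at 32.8 and 22.9 CPM in allogeneic pools, against 40.4 and 39.6 CPM in syngeneic pools, again without overlap. The share of all genes in that order was not computed for the tertiles.

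**Figure D2:**
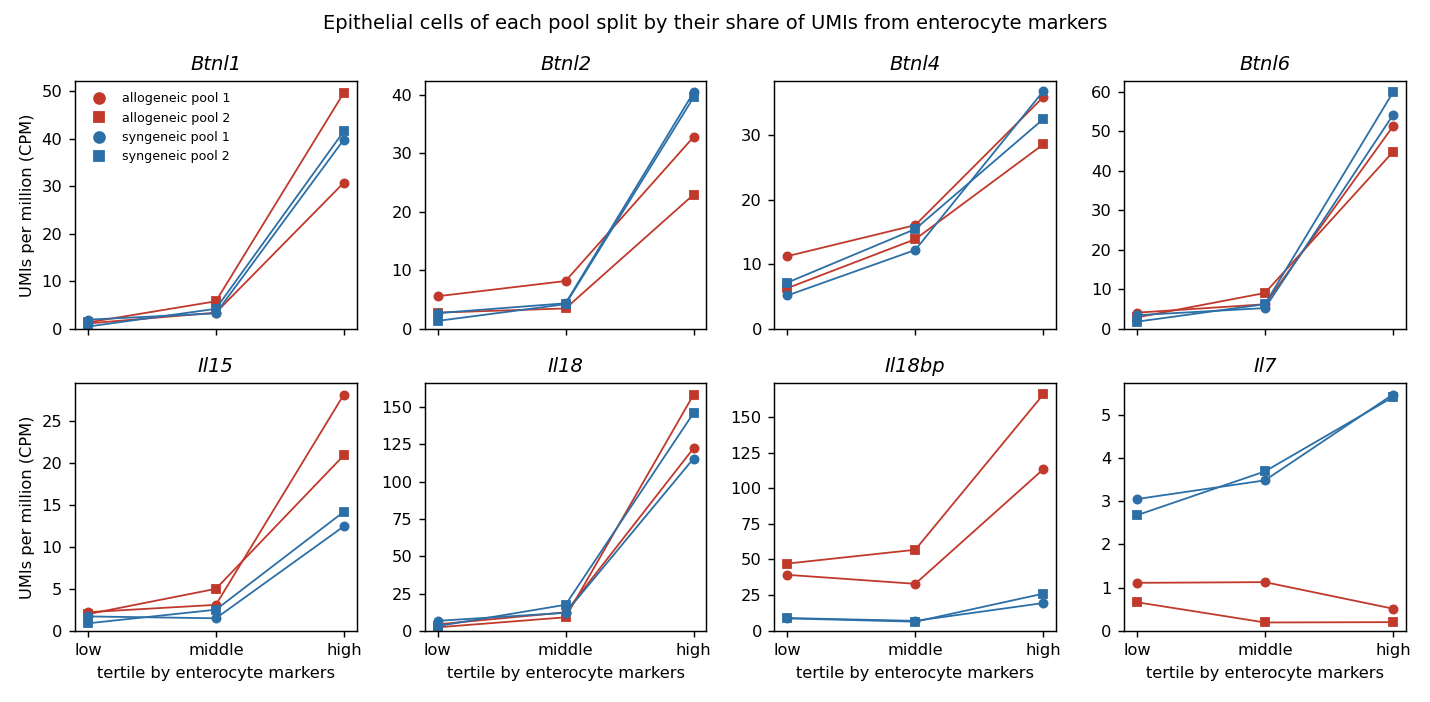
Level (CPM) of each gene in the low, middle and high tertile of epithelial cells ranked by their share of UMIs from 14 enterocyte markers, 1 line per pool with the same limits in all pools. The butyrophilin-like genes, Il15 and Il18 are highest in the high tertile in all 4 pools; Il18bp of the allogeneic pools is above the syngeneic pools in every tertile, and Il7 is below.

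Summed over all epithelial cells, 0 of the 4 butyrophilin-like genes were called, where 0.15% of 12028 genes were. Btnl1 had 5.95 and 22.2 CPM in the allogeneic pools, against 10.1 and 11.2 CPM in the syngeneic pools, so 1 allogeneic pool lay below and 1 above both syngeneic pools. Enterocyte-like cells were 368 of 1808 epithelial cells in allogeneic pool 1 and 1946 of 4599 in allogeneic pool 2. The log2 ratio of Btnl1 was 0.58 (SE 0.68, edgeR, adjusted p = 0.849); it was -0.998 (adjusted p = 0.0014) without allogeneic pool 2 and 1.29 (adjusted p = 1.15e-08) without allogeneic pool 1, opposite calls that each rest on 1 allogeneic pool. Btnl6 likewise gave -0.60 (adjusted p = 0.0188) without allogeneic pool 2 and 0.70 (adjusted p = 0.000199) without allogeneic pool 1. In these sums a change in the share of a class and a change in RNA per cell cannot be told apart. With the same share of each class drawn from every pool, the ratio of Btnl1 was -0.20 (adjusted p = 0.895).

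The gene whose pattern over 28 sums (7 epithelial classes in 4 pools) was most like that of Btnl1, by Pearson's r of log2(CPM + 1) among 5497 genes with a mean of at least 20 CPM, was Cndp2 (r = 0.927), followed by Hnf4g (0.921) and Aspa (0.920). Sums of 1 library share its depth and cells, so these values are descriptions. Hnf4g encodes a transcription factor of enterocytes. Of 9 transcription factors listed for enterocytes, 9 were tested in all epithelial cells and 0 were called, where 0.15% of 12028 genes were. The most abundant were Cdx1 (log2 ratio 0.07, edgeR, adjusted p = 0.960) and Klf4 (0.18, adjusted p = 0.905). The median log2 ratio of the list was 0.07, against 0.03 over all genes. In enterocyte-like cells 0 of the 9 were called, where 3.16% of 6653 genes were, and the list median was -0.16. There the ratios ran from -0.93 for Hnf4a (SE 0.30, edgeR, adjusted p = 0.136) to 0.48 for Gata6 (0.448), with Klf4 at -0.77 (0.231).

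Within single enterocyte-like cells, thinned to 2000 UMIs each, Btnl1 was seen in 5.54% (exact binomial 95% interval 3.20 to 8.84) and 11.04% (9.54 to 12.7) of allogeneic cells and in 10.3% (6.93 to 14.7) and 9.86% (6.65 to 13.9) of syngeneic cells. Thinning left out 79 and 352 allogeneic and 48 and 93 syngeneic cells below that depth, and without it the shares were 13.3% and 18.8% of allogeneic cells and 17.5% and 15.9% of syngeneic cells. In T or NK-like cells, which should lack the gene, it was seen in 1 of 98 and 2 of 77 allogeneic cells, and in 2 of 7 and 0 of 9 syngeneic cells. Btnl6 was seen in 9.09% of allogeneic pool 2 cells with Btnl1 and in 10.0% of those without it. The other 3 pools held 16 to 28 cells with Btnl1, and of these 1 to 4 also had Btnl6. Btnl6 was seen more often with Btnl1 than without it in 1 of the 4 pools, syngeneic pool 1 (14.8% and 8.97%), and a joint pattern was not detectable at this depth.

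Il15 was highest in enterocyte-like cells among the named classes in every pool, and it was not called in all epithelial cells, in enterocyte-like cells or in the test of the difference between classes. It lies at chr8:82331632-82403222 on the minus strand. In enterocyte-like cells it had 34.7 and 25.7 CPM in the allogeneic pools, against 22.8 and 18.2 CPM in the syngeneic pools. The groups did not overlap, as for 20% of genes in the upward direction, and the log2 ratio was 0.63 (SE 0.34, edgeR, adjusted p = 0.379). In all epithelial cells it had 6.17 and 10.4 CPM in the allogeneic pools, against 3.74 and 4.55 CPM in the syngeneic pools, with a log2 ratio of 1.12 (SE 0.44, adjusted p = 0.488). That ratio was 1.57 without allogeneic pool 1, where the spread comes from the syngeneic pair alone. It was -0.036 (edgeR, adjusted p = 0.983) when each class was drawn to the same share in every pool.

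Genes whose pattern over the 28 sums was most like that of Il15 were Gk (r = 0.884), Cs (0.867) and Apol9a (0.864), where Cs encodes citrate synthase. Il15ra, the chain on which epithelial cells present interleukin-15, had 13.2 and 10.8 CPM in allogeneic epithelial cells and 9.47 and 10.4 CPM in syngeneic ones. Its log2 ratio was 0.31 (SE 0.23, edgeR, adjusted p = 0.758), and in enterocyte-like cells it was 0.88 (SE 0.38, edgeR, adjusted p = 0.267). Il15ra was the only 1 of 6 receptor genes abundant enough in epithelial cells to be tested.

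Il7 was lower in allogeneic epithelial cells, at low counts, and it passed the test in some fits only. It lies at chr3:7569994-7613760 on the minus strand. Over all epithelial cells it had 14 and 9 UMIs in the allogeneic pools, or 1.03 and 0.371 CPM, against 62 and 50 UMIs, or 3.74 and 3.73 CPM, in the syngeneic pools. Both allogeneic values lie below both syngeneic values. That order was seen for 15.5% of the 9144 genes with a mean of at least 5 CPM, which Il7 does not reach. The log2 ratio was -2.48 (SE 0.48, edgeR, unadjusted p = 0.00218) and missed the threshold after adjustment over 12028 genes (adjusted p = 0.164). Both syngeneic pools but only 1 allogeneic pool reached the level the filter on low counts asks of 2 pools. DESeq2 gave -2.49 with an adjusted p of 0.0103. The edgeR ratio was -3.08 without allogeneic pool 1 and -2.01 without allogeneic pool 2, where the spread comes from the syngeneic pair alone.

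By class, Il7 had 6 and 2 UMIs in cycling progenitor-like cells of the allogeneic pools (1.56 and 0.353 CPM), against 12 and 14 UMIs in the syngeneic pools (5.05 and 6.88 CPM). In this class 22.8% of genes with a mean of at least 5 CPM lay in that order, a set that leaves out Il7. The gene passed the filter on low counts there only through the syngeneic pools, so that it had to differ to be tested at all, and its log2 ratio of -2.68 (SE 0.67, edgeR, adjusted p = 0.0449) is given with that limit. Without the filter it was -2.67 (adjusted p = 0.00415). The adjusted p missed the threshold with DESeq2 (-2.72, adjusted p = 0.163), without syngeneic pool 1 (-2.92, 0.188), without syngeneic pool 2 (-2.43, 0.589), and without cluster 4 (-1.83, 0.292), an allogeneic-rich progenitor cluster led by Ly6c1, Cxcl10 and Cxcl9.

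In goblet-like cells Il7 had 2 and 2 UMIs in the allogeneic pools, against 11 and 12 in the syngeneic pools (log2 ratio -2.94, SE 0.64, edgeR, adjusted p = 0.0839). That order was held by 22.5% of genes with a mean of at least 5 CPM, again a set without Il7. There too it passed the filter only through the syngeneic pools. In enterocyte-like cells it had 1 and 2 UMIs in allogeneic pools, against 7 and 6 in syngeneic pools, where it missed the filter; without the filter the ratio was -3.58 (adjusted p = 0.0146). In stem-like cells the pools overlapped, at 2 and 2 allogeneic and 10 and 5 syngeneic UMIs, or 0.893 and 3.49 CPM in allogeneic and 3.05 and 2.28 CPM in syngeneic pools. In each tertile of cells by enterocyte markers both allogeneic pools were below both syngeneic pools. The share of all genes in that order was not computed for the tertiles. In the high tertile Il7 had 0.512 and 0.2003 CPM in the allogeneic pools against 5.47 and 5.41 CPM in the syngeneic pools. Among enterocyte-like cells thinned to 2000 UMIs, Il7 was seen in 0 of 289 (which allows up to 1.04% of cells with a UMI at this depth, and sets no limit on cells that express the gene) and 1 of 1594 allogeneic cells, and in 4 of 261 and 3 of 284 syngeneic cells.

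A transcript from the other strand of the Il7 locus was higher in allogeneic pools. Gm16685, annotated as antisense, shares 1056 bases with the Il7 gene, and it is named here because of that overlap. It had 14.11 and 10.96 CPM in allogeneic epithelial cells, against 1.45 and 1.12 CPM in syngeneic ones. Its values did not overlap between the groups, as for 19.3% of genes in this direction. It rose with a log2 ratio of 3.31 (SE 0.29, edgeR, adjusted p = 0.0322) in all epithelial cells, where it passed the filter on low counts through both groups. In the enterocyte-like, cycling progenitor-like, stem-like, goblet-like and Paneth-like classes it had 5.82 to 19.2 CPM in the allogeneic pools, against 0.354 to 2.63 CPM (1 to 6 UMIs) in the syngeneic pools. It entered each of these fits only through the allogeneic pools, so its class ratios are not given. Whether the counting used strand is not given in the sources used here; without it, reads in the shared bases cannot be assigned to 1 of the genes.

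Il18 was highest in absorptive cells, and its difference between the groups depended on which absorptive cells were compared. It lies at chr9:50554827-50581840 on the plus strand, and its span overlaps Bco2 and Tex12 on the other strand; Bco2 was not called in any fit in which it was tested. In enterocyte-like cells it had 139 and 170 CPM in allogeneic pools, against 68.3 and 77.8 CPM in syngeneic pools. The groups did not overlap, an order held by 20% of genes in this class. Means were 155 ± 21.8 CPM in allogeneic and 73.0 ± 6.7 CPM in syngeneic pools (SD, n = 2 pools each). The log2 ratio of 1.20 (SE 0.31) missed the threshold (edgeR, adjusted p = 0.0695), while DESeq2 gave 1.25 (adjusted p = 0.0468). With edgeR it was 1.46 without allogeneic pool 1 and 0.88 without allogeneic pool 2. With 1 allogeneic pool left, the spread comes from the syngeneic pair alone, so only the effect size is given.

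The groups overlapped when the class was replaced by the high tertile of enterocyte markers. There Il18 had 122 and 158 CPM in the allogeneic pools and 116 and 146 CPM in the syngeneic pools, with a log2 ratio of 0.29 (edgeR, adjusted p = 0.727). Cluster 9, which the class leaves out and the high tertile can hold, had Il18 at 140 and 203 CPM in its syngeneic cells, above the 75.8 and 89.3 CPM of the syngeneic cells of cluster 12. Fabp6, a leading gene of cluster 9, encodes the ileal bile acid binding protein. With clusters 9 and 11 counted as enterocyte-like, the ratio was 0.25 (adjusted p = 0.761). In allogeneic pool 2, Il18 had 194 CPM in cluster 10 and 183 CPM in cluster 16, and 104 CPM in cluster 1. Il18 thus ranged from 104 to 194 CPM over these clusters of 1 allogeneic pool, and from 25.5 to 203 CPM over clusters 9, 12 and 19 of syngeneic pool 2.

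The allogeneic effect on Il18 differed between enterocyte-like and cycling progenitor-like cells by the test of that difference. In cycling progenitor-like cells Il18 had 6.00 and 2.82 CPM in allogeneic pools, against 10.5 and 6.88 CPM in syngeneic pools, with a log2 ratio of -1.001 (SE 0.46, edgeR, adjusted p = 0.364); 1 allogeneic and both syngeneic pools reached the level of the filter there. The effect in enterocyte-like cells minus that in cycling progenitor-like cells was 2.32 on the log2 scale (SE 0.44, interaction with library as a block, edgeR, adjusted p = 0.0007); 9.17% of 9933 genes passed that test, with a median over all genes of 0.15, and Il18 was the 1 passing gene of the set. It did not pass with classes from the marker scores of each cell (1.30, adjusted p = 0.0861), with clusters 9 and 11 counted as enterocyte-like (1.23, adjusted p = 0.141), with the high tertile in place of the class (1.29, adjusted p = 0.152), without cluster 4 (1.501, adjusted p = 0.0599) or without syngeneic pool 1 (1.89, adjusted p = 0.0666).

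In goblet-like cells the allogeneic pools split, with Il18 at 5.85 and 24.5 CPM against 16.8 and 17.7 CPM in the syngeneic pools (log2 ratio 0.0079, adjusted p = 0.997). Without allogeneic pool 1 it was 0.71 (adjusted p = 0.0065), and without allogeneic pool 2 it was -1.64 (adjusted p = 4.9e-05), so each call follows 1 pool. Genes most like Il18 over the 28 sums were Slc13a2 (r = 0.895), Crip1 (0.890) and Cdc42se2 (0.889). Of 9 genes listed for interleukin-18 processing, 7 were tested in all epithelial cells and 0 were called, where 0.15% of 12028 genes were. The most abundant were Pycard, the inflammasome adaptor (log2 ratio -0.35, edgeR, adjusted p = 0.797), and Casp1, the protease that cleaves the precursor (0.17, adjusted p = 0.921). In enterocyte-like cells 0 of the 7 were called, where 3.16% of all genes were. Pycard there had 0.72 (edgeR, adjusted p = 0.300) and Casp1 0.72 (0.260). In cycling progenitor-like cells Pycard had -0.83 (edgeR, adjusted p = 0.254) and Casp1 -0.27 (0.771), the opposite sign for both. In cycling progenitor-like cells Gsdmd, the pore-forming protein that releases interleukin-18, rose (2.85, SE 0.36, edgeR, adjusted p = 0.000763). It was the 1 call among 7 tested, where 3.4% of 9786 genes were called.

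Il18bp was higher in both allogeneic pools than in both syngeneic pools in each of the 7 epithelial classes. That order was held by 20% of genes in enterocyte-like, 17.9% in cycling progenitor-like and 14.8% in stem-like cells. It was held by 18.2% in goblet-like and 40.7% in Paneth-like cells. The share was not computed for enteroendocrine-like and tuft-like cells, where the order rests on few UMIs and the counting intervals of the groups overlap. Il18bp lies at chr7:102014885-102018690 on the minus strand. In enterocyte-like cells it had 203 and 1393 UMIs in the allogeneic pools, or 135 and 186 CPM, against 22 and 40 UMIs, or 19.3 and 33.1 CPM, in the syngeneic pools. The mean was 161 ± 35.6 CPM in allogeneic pools and 26.2 ± 9.8 CPM in syngeneic pools (SD, n = 2 pools each), a ratio of 6.13. The log2 ratio was 2.74 (SE 0.39, edgeR, adjusted p = 0.00706). Il18bp was the 1 call among the 7 members tested in that class, where 3.16% of all genes tested were called. As background, Il18bp is known to be induced by interferon gamma.

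In secretory cells, goblet-like cells had Il18bp at 42.1 and 69.3 CPM in allogeneic pools, against 7.66 and 7.08 CPM in syngeneic pools. Paneth-like cells had 58.8 and 77.2 CPM in allogeneic pools, against 8.90 and 7.59 CPM in syngeneic pools. The groups lay far apart in both classes, with ratios of the means of 7.57 in goblet-like and 8.25 in Paneth-like cells. Il18bp rose in goblet-like cells (log2 ratio 3.02, SE 0.38, adjusted p = 0.0123), where it was 1 of 7 members tested against 0.864% of all genes, and in Paneth-like cells (2.76, SE 0.29, adjusted p = 0.00173), where it was the only member tested and 0.964% of genes were called. Without cluster 8, a mostly allogeneic goblet cluster (255 and 710 allogeneic and 74 and 77 syngeneic cells) with Cxcl9, Cxcl10 and Iigp1 among its leading genes, the goblet ratio was 3.85 but the adjusted p was 0.661, and 0 of 9044 genes were called by edgeR (631 at an unadjusted p under 0.05).

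In proliferating cells, the cycling progenitor-like class had Il18bp at 29.98 and 40.23 CPM in allogeneic pools, against 7.58 and 7.86 CPM in syngeneic pools (log2 ratio 2.26, SE 0.35, edgeR, adjusted p = 0.00265). In this class 3.4% of genes were called, and 6 members were tested; Il18bp passed the filter on low counts through both groups, whereas Il7, also called, passed it only through the syngeneic pools. Cluster 4 held 202 and 750 of the allogeneic and 31 and 16 of the syngeneic cells of this class; without it the ratio of Il18bp was 1.67 (adjusted p = 0.0147). Stem-like cells had 25.0 and 26.1 CPM in allogeneic pools, against 6.72 and 7.30 CPM in syngeneic pools (1.89, SE 0.31, adjusted p = 0.008). It was the 1 call among 4 members tested in stem-like cells, where 1.27% of genes were called. The adjusted p missed the threshold with DESeq2 (1.92, adjusted p = 0.0945), with classes from the marker scores of each cell (2.44, 0.0619), without syngeneic pool 1 (1.84, 0.228) and without syngeneic pool 2 (1.97, 0.0883). The small enteroendocrine-like and tuft-like classes had 5 to 13 Il18bp UMIs per allogeneic pool and 0 to 5 per syngeneic pool and were not tested. For comparison, T or NK-like cells had Il18bp at 36.2 and 27.9 CPM (22 and 12 UMIs) in the allogeneic pools. Those levels are above the stem-like ones and overlap the cycling progenitor-like ones of the same group. Syngeneic T or NK-like cells had 1 and 0 UMIs. The part of free RNA in the stem-like and cycling progenitor-like levels was not tested.

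**Figure D3:**
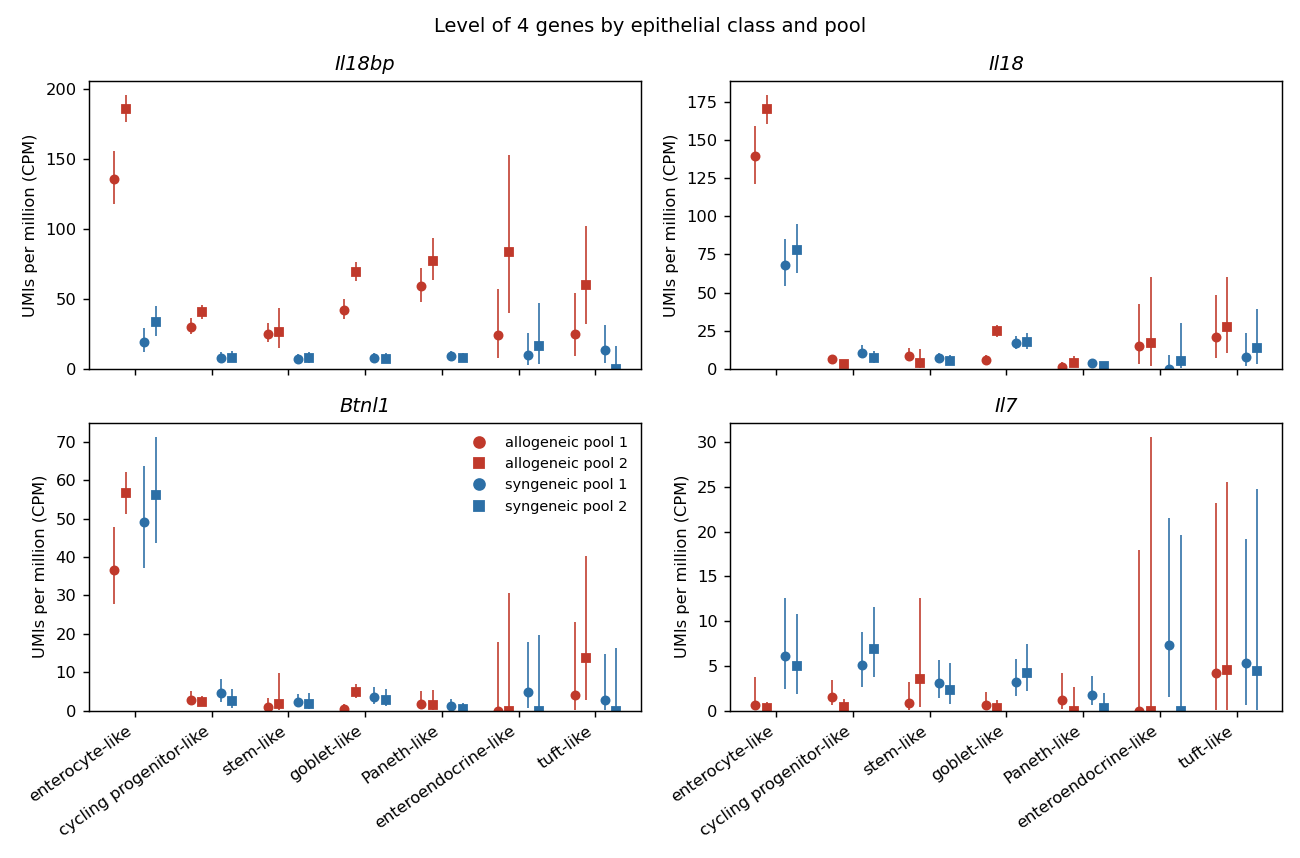
Level (CPM; linear axes from 0, exact 95% Poisson intervals) of Il18bp, Il18, Btnl1 and Il7 in 7 epithelial classes, 1 point per pool. Il18bp of both allogeneic pools is above both syngeneic pools in every class, with overlapping intervals in enteroendocrine-like and tuft-like cells. Il18 and Btnl1 are highest in enterocyte-like cells of both groups, and Il7 is at most 7.37 CPM in any pool and class.

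Over all epithelial cells Il18bp had 48.20 and 98.02 CPM in the allogeneic pools, against 10.1 and 11.5 CPM in the syngeneic pools. The order of the pools is shared by 19.3% of genes in this direction. The log2 ratio was 2.89 (SE 0.50) with an unadjusted p of 0.00129, and it missed the threshold in this fit (edgeR, adjusted p = 0.140). In that fit 0 of the 8 members and 0.15% of 12028 genes were called; at an unadjusted p under 0.05, Il7, Il18bp and Il15 passed. DESeq2 called 313 genes, 2 of them members, with 2.90 for Il18bp (adjusted p = 6.58e-08). With equal class shares in every pool the edgeR ratio was 2.42 (adjusted p = 0.00149). In the 4 fits without 1 pool it was 2.0002 to 3.41, where the spread comes only from the group that kept both pools.

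**Figure D4:**
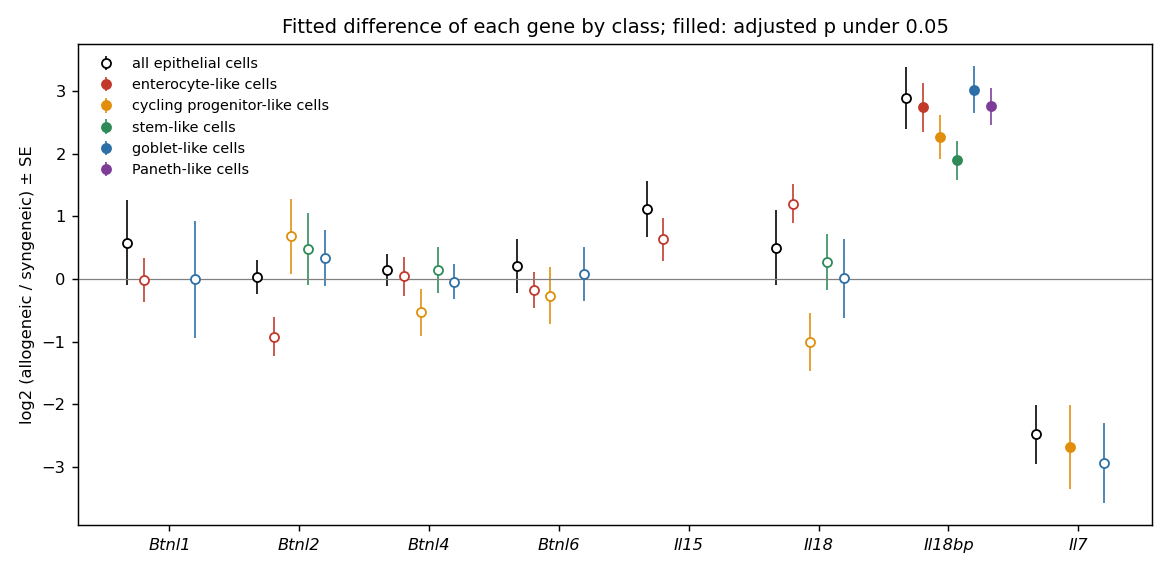
Fitted log2 ratio of allogeneic to syngeneic pools for each gene tested, with its standard error, in all epithelial cells and in 5 classes; filled points passed an adjusted p of 0.05. Il18bp is positive and passed in all 5 classes but not in all epithelial cells, and Il7 is negative and passed in cycling progenitor-like cells, which it entered only through the syngeneic pools.

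The ratio of Il18 to Il18bp UMIs within a pool was 1.03 and 0.917 in allogeneic enterocyte-like cells, against 3.55 and 2.35 in syngeneic ones. Over all epithelial cells it was 0.485 and 0.693 in allogeneic pools, against 3.07 and 3.57 in syngeneic pools. The ratio was lower in both allogeneic pools in each of the 5 larger classes. It uses the same Il18bp counts as the levels above, so this order is not a separate result. In Paneth-like cells it rests on 2 and 5 Il18 UMIs in the allogeneic pools. Both genes were counted as 3′ tags, so the ratio is compared between groups and is not a ratio of protein or of molecules per cell.

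Single enterocyte-like cells gave the same order of the pools for Il18bp. After thinning to 2000 UMIs, Il18bp was seen in 20.8% (exact binomial 95% interval 16.2 to 25.9) and 30.9% (28.6 to 33.2) of allogeneic cells, against 3.83% (1.85 to 6.93) and 5.99% (3.53 to 9.41) of syngeneic cells. In T or NK-like cells, set beside them as another cell type, it was seen in 6.12% of 98 (2.28 to 12.85) and 3.90% of 77 (0.811 to 10.97) allogeneic cells, and in 1 of 7 and 0 of 9 syngeneic cells. Median depths before thinning were 2843 to 3570 UMIs in enterocyte-like cells and 1323 to 1619 UMIs in T or NK-like cells. The syngeneic pools held too few T or NK-like cells to set a background share of their own, and the class is not pure, so the part of free RNA in the syngeneic shares was not tested. Unthinned, the shares were 35.1% and 47.2% in the allogeneic pools, against 6.15% and 8.49% in the syngeneic pools.

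**Figure D5:**
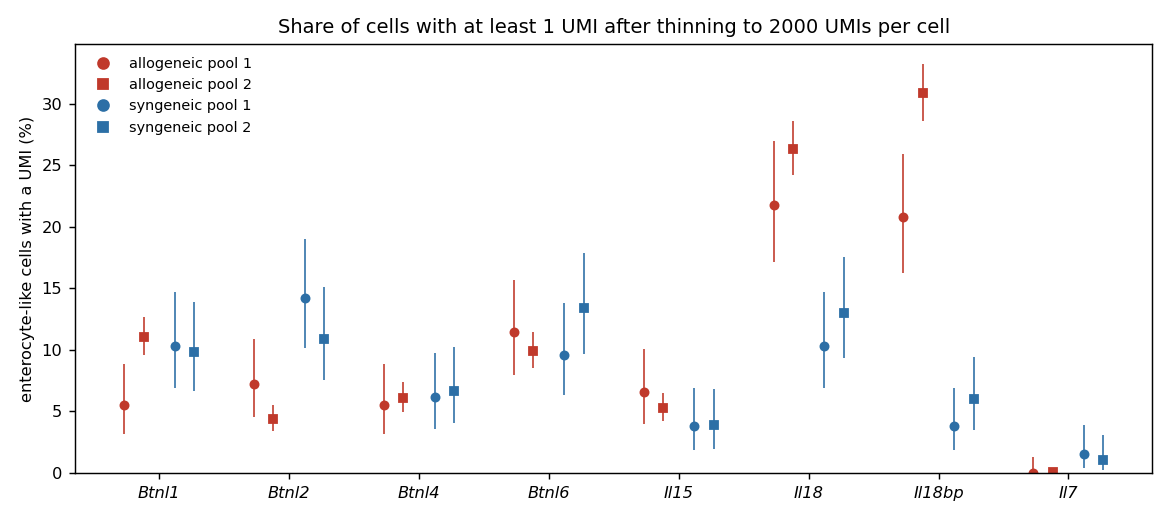
Share of enterocyte-like cells with at least 1 UMI of each gene after thinning every cell to 2000 UMIs, 1 point per pool with exact 95% binomial intervals. Il18bp and Il18 are seen in 20.8% to 30.9% of allogeneic cells and 3.83% to 13.0% of syngeneic cells, while the shares of the butyrophilin-like genes lie between 4.39% and 14.2%.

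Il18 was seen in 21.8% and 26.4% of allogeneic enterocyte-like cells, against 10.3% and 13.0% of syngeneic ones. In T or NK-like cells it was seen in 2 of 98 and 3 of 77 allogeneic cells and in 0 of 7 and 0 of 9 syngeneic cells, the syngeneic numbers being too few to set a background. Cells of allogeneic pool 2 with an Il18 UMI held Il18bp in 28.1% of cases, and those without held it in 31.9%. In allogeneic pool 1 the shares were 22.2% and 20.4%, so the pools differed in direction and no joint pattern was detectable at this depth.

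Il18bp overlaps Numa1 by 80 bases on the other strand. Numa1 was not called in any class, with a log2 ratio of -1.05 in enterocyte-like cells (adjusted p = 0.190) and -0.03 in all epithelial cells (0.988). The summed level of 13 T or NK markers within enterocyte-like cells was 12.0 and 9.87 CPM in the allogeneic pools and 5.26 and 19.0 CPM in the syngeneic pools, with 9 and 1 markers at 0 in the allogeneic pools and 10 and 4 at 0 in the syngeneic pools. That of 11 myeloid markers was 8.00 and 4.13 CPM in allogeneic pools and 3.50 and 12.4 CPM in syngeneic pools, with 5 and 1 at 0 in the allogeneic pools and 9 and 7 at 0 in the syngeneic pools. Neither sum separates the groups in enterocyte-like cells. In cycling progenitor-like cells the T or NK sum was 11.5 and 5.47 CPM in allogeneic pools, against 0.842 and 0.983 CPM in syngeneic pools (3 and 7 markers at 0 in the allogeneic pools and 11 in each syngeneic pool). The myeloid sum there was 5.74 and 2.65 CPM in allogeneic pools, against 8.00 and 14.3 CPM in syngeneic pools, with 7 and 8 markers at 0 in the allogeneic pools and 7 in each syngeneic pool. In stem-like and goblet-like cells the T or NK sums overlapped between the groups, and the myeloid sums were 0 to 7.02 CPM in allogeneic pools and 8.85 to 9.58 CPM in syngeneic pools. The part of such transcripts in these results was not tested.

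Genes of the interferon response were higher in the allogeneic pools beside Il18bp. Of 22 listed genes, 7 rose and 0 fell in all epithelial cells (median log2 ratio of the list 2.19, against 0.03 over all genes): the chemokine genes Cxcl9 (6.78, edgeR, adjusted p = 0.0356) and Cxcl10 (6.10, adjusted p = 0.0493), and the interferon-induced GTPase genes Gbp2, Gbp3, Gbp5, Gbp7 and Iigp1 (2.38 to 5.39). In all epithelial cells 0.15% of all genes tested were called in either direction. In enterocyte-like cells 5 of 20 listed genes tested rose, where 3.16% of all genes were called. In cycling progenitor-like, stem-like, goblet-like and Paneth-like cells 15, 14, 13 and 17 of 22 rose. Of all genes, 3.4%, 1.27%, 0.864% and 0.964% were called there. No listed gene fell in any class. Some tested genes passed the filter on low counts only through the allogeneic pools and had to differ to be tested. They were 1 in all epithelial cells (Gbp5), 6 each in enterocyte-like, cycling progenitor-like and stem-like, 5 in goblet-like and 9 in Paneth-like cells. Such genes are included in the counts above. In enterocyte-like cells Cxcl9, Iigp1 and Ly6a rose and were among them, while Irgm1 and Ubd rose and passed through both groups. Over the 28 sums the genes most like Il18bp were B2m (r = 0.877), H2-T22 (0.867) and H2-K1 (0.840), genes of class I antigen presentation; Il18bp was added to that comparison after its values were seen.

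Of 19 other listed epithelial genes that address these lymphocytes, 11 were tested in all epithelial cells and 0 were called. As 0.15% of 12028 genes were called in that fit, a count of 0 is near the share of all genes. The median log2 ratio of the list was 0.12, against 0.03 over all genes. Ccl25, the chemokine that draws Ccr9-bearing lymphocytes to the small intestine, had 149 and 310 CPM in allogeneic epithelial cells, against 357 and 333 CPM in syngeneic ones. Ccl25 fell in cycling progenitor-like (log2 ratio -2.49, SE 0.30, edgeR, adjusted p = 0.000522), stem-like (-2.08, SE 0.32, adjusted p = 0.00496) and Paneth-like cells (-1.84, SE 0.30, adjusted p = 0.0194), while it was not called in enterocyte-like (0.19, adjusted p = 0.838) or goblet-like cells (-1.12, adjusted p = 0.301). H2-T23, which encodes the class I-like molecule Qa-1, had 334 and 319 CPM in allogeneic epithelial cells, against 123 and 122 CPM in syngeneic ones. It rose in cycling progenitor-like (1.84), stem-like (1.71), goblet-like (1.59) and Paneth-like cells (2.12), with adjusted p of 0.00265 to 0.0339 (edgeR). It was not called in enterocyte-like cells (0.68, adjusted p = 0.297). Of the list, 6 genes were tested in cycling progenitor-like, stem-like and Paneth-like cells and 7 in goblet-like cells. Of all genes, 3.4% were called in cycling progenitor-like, 1.27% in stem-like, 0.864% in goblet-like and 0.964% in Paneth-like cells. Of the other butyrophilin genes, Btnl9, Btnl10, Btn1a1, Btn2a2 and Ermap had at most 0.367 CPM in any pool and were not tested.

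On the lymphocyte side, T or NK-like cells numbered 244 and 205 in the allogeneic pools, against 16 and 33 in the syngeneic pools, too few there for a test. Il18r1, the receptor chain that binds interleukin-18, had 52 and 17 UMIs in allogeneic T or NK-like cells (85.4 and 39.6 CPM) and 0 in both syngeneic pools, where 3 counts would be 63.7 and 39.7 CPM, so no difference was detectable at this depth. Il2rb, the shared chain of the interleukin-15 receptor, had 249.7 and 67.5 CPM in allogeneic pools and 84.9 and 198 CPM in syngeneic pools, which overlap. Il7r had 118 and 53.5 CPM in allogeneic pools, against 42.5 and 26.4 CPM in syngeneic pools, the syngeneic values resting on 2 UMIs each. Itgae, which encodes the integrin chain that binds epithelial E-cadherin, had 149 and 4.66 CPM in allogeneic pools, and 127 and 304 CPM in syngeneic pools. The receptor gene segment Tcrg-V7, carried by the lymphocytes that Btnl1 and Btnl6 select, had 2 UMIs in allogeneic pool 1 and 0 in the other 3 pools. Only 3′ tags were counted, and 3 counts would be 63.7 and 39.7 CPM in the syngeneic pools. These counts therefore do not show whether such lymphocytes were absent. Of 22 listed genes of intraepithelial lymphocytes, 4 were tested within epithelial cells and 0 were called, where 0.15% of 12028 genes were. The most abundant were Ahr (log2 ratio -0.19, edgeR, adjusted p = 0.893) and Gzma (-0.22, adjusted p = 0.964). The T or NK-like class is not pure: the myeloid gene Lyz2 had 1620 and 566 CPM in its allogeneic cells and 0 UMIs in its syngeneic cells.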

How the data were processed

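RNA of crypt cells was captured on the 10x Chromium 3′ platform, per the labels' protocols, and the authors deposited a matrix of UMI counts per gene and cell, made with Cell Ranger 2.1.1 on mm10 per the submitters' processing notes, while the matrix header names version 3.1.0. The labels give 8000 to 10000 cells per pool, against 3257 to 6341 deposited barcodes. Dense text versions of the matrices were not used here, and no source used here gives the annotation release or the strand setting.

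Barcodes under 500 genes, under 1000 UMIs or over 20% mitochondrial counts were dropped, which left 12285; Scrublet in scanpy 1.11.5 removed 100 doublets (0.814%), and 21 Leiden clusters (resolution 1) were named where the mean marker score reached 0.5 with 3 or more markers detected. Python 3.11.15 was used with numpy 2.4.6, scipy 1.17.1 and scikit-learn 1.9.0. Counts summed per class and pool were fitted with edgeR 4.0.16 in R 4.3.3 (limma 3.58.1; filterByExpr, TMM, robust quasi-likelihood test, 2 pools against 2), with Benjamini-Hochberg adjustment over all genes tested and a threshold of 0.05. An exact permutation test of 2 pools against 2 cannot go below 0.333 (two-sided), so none is given. P-values set the difference between the groups against the spread between pools, as estimated with information from all genes. Where a group kept 1 pool, that spread came from the other group. In the interaction it is the spread of class sums with library as a block. Depth sets the precision: intervals (95%) and the limit of 3 counts for a count of 0 cover counting error only. Gene positions are from GENCODE M21. The test was checked on simulated counts.

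The genes named are the 8 members and, of each list, those called in all epithelial cells or else the 2 of highest mean CPM. The 3 genes most like Btnl1, Il18 and Il15 are named too. Gm16685, Numa1 and Bco2 were added for their overlap. Gsdmd, Hnf4a, Gata6 and the genes most like Il18bp were added after their values were seen. The members and lists were chosen with earlier results of these data known. Alternatives were DESeq2 1.42.0, other size factors, no filter, a mitochondrial limit of 10%, classes from marker scores of each cell, equal class shares, leaving out each pool and, chosen after seeing the data, clusters added or left out and the tertile of cells highest in enterocyte markers.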

Additional observations from a re-analysis of the deposited data

Results flagged for a closer look

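The allogeneic effect on Il18 differed between cell classes by the test of the difference itself. The log2 ratio of allogeneic to syngeneic pools in enterocyte-like cells minus that in cycling progenitor-like cells was 2.32 (SE 0.44, edgeR interaction with library as a block, adjusted p = 0.0007), against a median of 0.15 over all genes in that contrast. With other size factors it was 2.18 (adjusted p = 0.0012). It rests on 23 and 16 Il18 UMIs in the allogeneic and 25 and 14 UMIs in the syngeneic progenitor-like sums. It missed the threshold without syngeneic pool 1 (1.89, adjusted p = 0.0666) and without cluster 4 of the progenitor-like class (1.501, 0.0599). It also missed it with other enterocyte-like cells, at 1.23 (0.141) with clusters 9 and 11 added, 1.29 (0.152) in the tertile highest in enterocyte markers and 1.30 (0.0861) with classes from the marker scores of each cell. No group had the 4 or more pools needed to look for an outlying pool.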

How the results depend on the processing

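Over 42 results and 406 alternatives, 265 counted as the same. For a log2 ratio this means the same direction and side of the threshold, and for a count of calls a similar count. In 22 alternatives, over 10 results, a log2 ratio changed sign. The causes were not tested. Genes called in all epithelial cells (18) came to 313 with DESeq2, 533 without the filter on low counts, 239 with equal class shares and 0 with the mitochondrial limit of 10% (edgeR; 1022 of 11663 had an unadjusted p under 0.05). In enterocyte-like cells (210) they were 598 without the filter, 608 at the 10% limit and 123 in the tertile highest in enterocyte markers. In cycling progenitor-like cells (333) they were 634 without the filter and 190 without cluster 4. In stem-like cells (120) they were 73 with DESeq2, 288 without the filter and 64 with marker scores of each cell. In goblet-like cells (88) they were 170 with DESeq2, 561 without the filter, 189 at the 10% limit, 34 with marker scores and 0 without cluster 8 (edgeR; 631 at an unadjusted p under 0.05). In Paneth-like cells (85) they were 244 without the filter and 131 at the 10% limit. Leaving out 1 pool gave 96 to 5633 genes in all epithelial, 112 to 2702 in enterocyte-like, 172 to 3001 in cycling progenitor-like, 50 to 1090 in stem-like, 93 to 3518 in goblet-like and 56 to 1285 in Paneth-like cells. The lone pool of a group was then assumed to vary like the other group, and the high counts came from leaving out an allogeneic pool.

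Of the 8 genes, 0 were called in all epithelial cells, against 2 with DESeq2, 2 without the filter and 1 with equal class shares. In enterocyte-like cells 1 was called, against 2 with DESeq2, 3 without the filter, and 2 each at the 10% limit, with marker scores, with clusters 9 and 11 added and in the highest tertile. In cycling progenitor-like cells 2 were called (Il7 after a filter it passed only through the syngeneic pools), against 1 with DESeq2 and 1 without cluster 4. In stem-like cells 1 was called, against 0 with DESeq2 and 0 with marker scores. In goblet-like cells 1 was called, against 2 without the filter and 0 without cluster 8. In the interaction 1 was called, against 0 with marker scores, with clusters added and in the highest tertile. Leaving out 1 pool gave 1 to 6 in all epithelial, 1 to 3 in enterocyte-like, 1 to 3 in cycling progenitor-like, 0 to 1 in stem-like, 1 to 4 in goblet-like cells and 0 to 2 in the interaction.

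With equal class shares the log2 ratios in all epithelial cells were -0.20 for Btnl1, -0.99 for Btnl2, -0.19 for Btnl4, -0.45 for Btnl6 and -0.036 for Il15, where the sums had positive ratios. Btnl1 in enterocyte-like cells (-0.02) was 0.024 with DESeq2, 0.061 without the filter, 0.26 with marker scores, 0.24 with clusters added and 0.21 in the highest tertile. The interaction for Il18bp (0.62) was -0.065 at the 10% limit. Without 1 pool, all epithelial ratios ran from -0.998 to 1.29 for Btnl1, -0.28 to 0.25 for Btnl2, -0.13 to 0.36 for Btnl4, -0.60 to 0.70 for Btnl6 and -0.78 to 1.15 for Il18. Btnl1 in enterocyte-like cells ran from -0.58 to 0.34, and Il18 from -0.66 to 0.50 in stem-like and -1.64 to 0.71 in goblet-like cells. The excess of allogeneic cells with Il18bp was 20.9 percentage points at 2000 UMIs, 13.3 at 1000 and 33.8 unthinned, and that of Il18 was 12.4, 8.15 and 20.6. No paired analysis was possible because replicate numbers only follow accession order. Low counts limit Il7, and the enteroendocrine-like and tuft-like classes were too small to test.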
